A study of Homo sapiens with 4 samples.

Results

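Genes of proteolysis and its control were examined in SW480, an established human cell line from a colon adenocarcinoma. They were chosen by name, as the array probes whose gene name in the spot tables starts like those of cathepsins, cystatins, serpins, kallikreins, plasminogen activators, calpains, proteasome subunits, ubiquitin enzymes, cullins, deubiquitinases and related inhibitors. The name rule itself uses no measured value and took 47 of 1856 probes, each of a different gene and each printed as 2 spots. They comprised 8 cathepsins, 5 cystatins and Kazal or Kunitz inhibitors, 12 serpins, 9 kallikreins and other serine proteases, 7 genes of ubiquitin conjugation, ligation and the proteasome, and 6 deubiquitinases. The proteasome was represented by 1 gene, PSMD7, so the set says little about that complex. In the BM group, the medium of the cells contained a postbiotic of Bacillus mojavensis, a preparation from a culture of that bacterium in MRS medium, at 15% by volume for 10 h. In the MRS group it contained MRS, the bacterial growth medium itself, at 15% for the same time. All cells were kept in DMEM F12 with 10% fetal bovine serum, and each group held 2 samples from separate cultures, according to the submitters. BM 1 and MRS 1 shared array 1, and BM 2 and MRS 2 shared array 2, with BM in Alexa Fluor 647 and MRS in Alexa Fluor 555 on both, so a dye effect cannot be told apart from the treatment.

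Proteolysis in a cell runs largely along 2 routes. Cathepsins are proteases that act mainly in lysosomes on proteins delivered there, and cystatins block the cysteine proteases among them. In the other route, E1, E2 and E3 enzymes activate, carry and attach ubiquitin, the proteasome degrades the tagged protein, and deubiquitinases remove the tag. Serpins are inhibitors that most often trap serine proteases in an irreversible complex, and kallikreins are secreted serine proteases of epithelia. In carcinomas of the colon, secreted and pericellular proteases and their inhibitors are studied for their part in the turnover of the surrounding matrix.

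The promoters of 4 members are shown because CTSZ and SERPINB1 had the highest and the lowest mean ratio of the set, and SERPINB9 and SERPINB6 are the neighbours of SERPINB1 on chromosome 6, also lower in BM on both arrays. Each sequence is the 250 bases before the annotated gene start, read 5′ to 3′ on the strand of the gene, from RefSeq for GRCh38.p14. All 4 genes lie on the minus strand, at chr20:59007255-59007504 for CTSZ, chr6:2841864-2842113 for SERPINB1, chr6:2903310-2903559 for SERPINB9 and chr6:2971568-2971817 for SERPINB6. Capitals mark the GC box GGGCGG and the TATA box TATAAA, each searched in either orientation.
CTSZ: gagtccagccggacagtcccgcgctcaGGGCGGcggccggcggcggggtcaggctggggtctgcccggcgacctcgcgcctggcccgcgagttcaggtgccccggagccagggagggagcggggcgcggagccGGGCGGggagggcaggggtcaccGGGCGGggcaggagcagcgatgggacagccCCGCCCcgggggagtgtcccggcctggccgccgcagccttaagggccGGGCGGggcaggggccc
SERPINB1: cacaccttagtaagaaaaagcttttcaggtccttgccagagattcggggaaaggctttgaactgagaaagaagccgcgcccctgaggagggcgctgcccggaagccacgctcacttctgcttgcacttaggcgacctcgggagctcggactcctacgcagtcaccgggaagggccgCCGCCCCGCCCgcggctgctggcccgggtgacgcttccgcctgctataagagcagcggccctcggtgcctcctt
SERPINB9: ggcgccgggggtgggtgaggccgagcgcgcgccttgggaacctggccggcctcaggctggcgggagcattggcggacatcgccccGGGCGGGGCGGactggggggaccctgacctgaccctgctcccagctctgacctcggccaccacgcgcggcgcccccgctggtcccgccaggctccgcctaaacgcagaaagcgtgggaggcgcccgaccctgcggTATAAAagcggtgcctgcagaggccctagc
SERPINB6: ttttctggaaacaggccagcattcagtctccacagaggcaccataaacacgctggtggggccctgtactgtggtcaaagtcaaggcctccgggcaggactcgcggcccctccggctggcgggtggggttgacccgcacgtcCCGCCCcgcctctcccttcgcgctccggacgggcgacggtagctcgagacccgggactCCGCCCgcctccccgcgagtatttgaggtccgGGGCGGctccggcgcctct
The CTSZ promoter was 81.2% G and C and held 5 GC boxes, against a median of 58.0% G and C over 27305 promoters. The SERPINB1, SERPINB9 and SERPINB6 promoters were 63.6%, 74.4% and 68.8% G and C and held 2, 2 and 3 GC boxes, with neighbouring matches that share a base in SERPINB1 and SERPINB9. SERPINB9 alone of the 4 held a TATA box. Among the 34 members with a promoter in the table, 20 held GGGCGG on either strand, against 42.3% of all 27305 promoters. TATAAA was held by 4, against 11.1%, also on either strand, so a match need not read in the direction of the gene. The palindrome CACGTG, the core of the element through which the factor TFEB acts on lysosomal genes, was found in 1 of the 34, CTSF, against 6.49% of all promoters. A match here is a match of letters only, and no binding was measured.

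Median raw intensities of the spots were 1655 and 1895 for BM and 1985 and 2186 for MRS, over median local backgrounds of 79.5 and 101.7 in BM and 49.6 and 51.9 in MRS. Of the 47 members, 45 lay above 1.5 times their local background in all 4 samples. The E2 enzyme gene UBE2N lay at 1.36 and 1.31 times background in BM 1 and BM 2, against 1.67 and 1.55 in MRS 1 and MRS 2, and CTSF lay at 1.33 in BM 2. All 8 measured colon epithelium markers (CEACAM5, CEACAM1, EPCAM, KRT19, MUC2, TFF3, CDH17 and GPA33) were above background in all 4 samples, but so were all 5 leukocyte and all 7 fibroblast probes measured, and 1816 of all 1856 probes. Signal above background on these arrays therefore did not separate genes of the labelled cell type from genes of cells a pure culture lacks, and which part of a signal came from the named gene was not tested. Levels are given below as log2 intensity after loess normalization, and differences as log2 ratios, BM over MRS. The mean of a bulk sample does not tell fewer cells with a transcript from less of it per cell.

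The comparison of BM with MRS asks whether the postbiotic changed these transcripts relative to its growth medium. CTSZ, a lysosomal carboxypeptidase, was the member with the highest mean ratio, 0.25 ± 0.048 (SD, n = 2), or 1.19-fold, and SERPINB1, an inhibitor of neutrophil proteases, the lowest, -0.34 ± 0.096 (SD, n = 2), or 0.790-fold. No member passed the test: limma gave 0 of 47 under an adjusted p of 0.05, as it gave 0 of all 1856 probes (0%), and the smallest adjusted p was 0.571. At an unadjusted p under 0.05, 2 members were higher (CTSZ and SERPINI2) and 1 was lower (SERPINB1), which is 6.38% of the members against 6.57% of all probes, or 3.29% in each direction. On both arrays alike, 11 members were higher in BM (23.4%, against 24.6% of all probes) and 16 were lower (34%, against 28.4%), and 20 had opposite signs. The shared-sign count of 27 is 57.4% of the members, against 53.1% of all probes, so the members stood near the background of the arrays.

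The ratios were small. The median of the 47 mean ratios was -0.024, against -0.0057 over all probes, and the median of their absolute values was 0.050, against 0.051. A mean ratio of at least 0.2 in either direction was reached by CTSZ, CTSV and SERPINB1, 6.38% of the members against 4.47% of all probes. The half-width of the 95% interval was 0.153 in the median member. The interval lay within 1.5-fold for all 47 members and for 1851 of all 1856 probes. These intervals are not adjusted over probes, rest partly on a spread pooled over all probes and do not cover a dye effect. They belong to the normexp and loess values alone: SERPINB1 stood at -0.47 with plain background subtraction, against -0.34. For UBE2N and CTSF, under 1.5 times background in at least 1 BM sample, an interval says little about a fold. Both BM samples lay above both MRS samples for 1 member, CTSZ (2.96% of all probes did so), and below them for 1, CTSG (3.5%). Levels were normalized within each array only, so such separation also depends on how far the arrays differed in level. CTSG separated at a mean ratio of -0.039, while SERPINB1 at -0.34 did not.

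**Figure D1:**
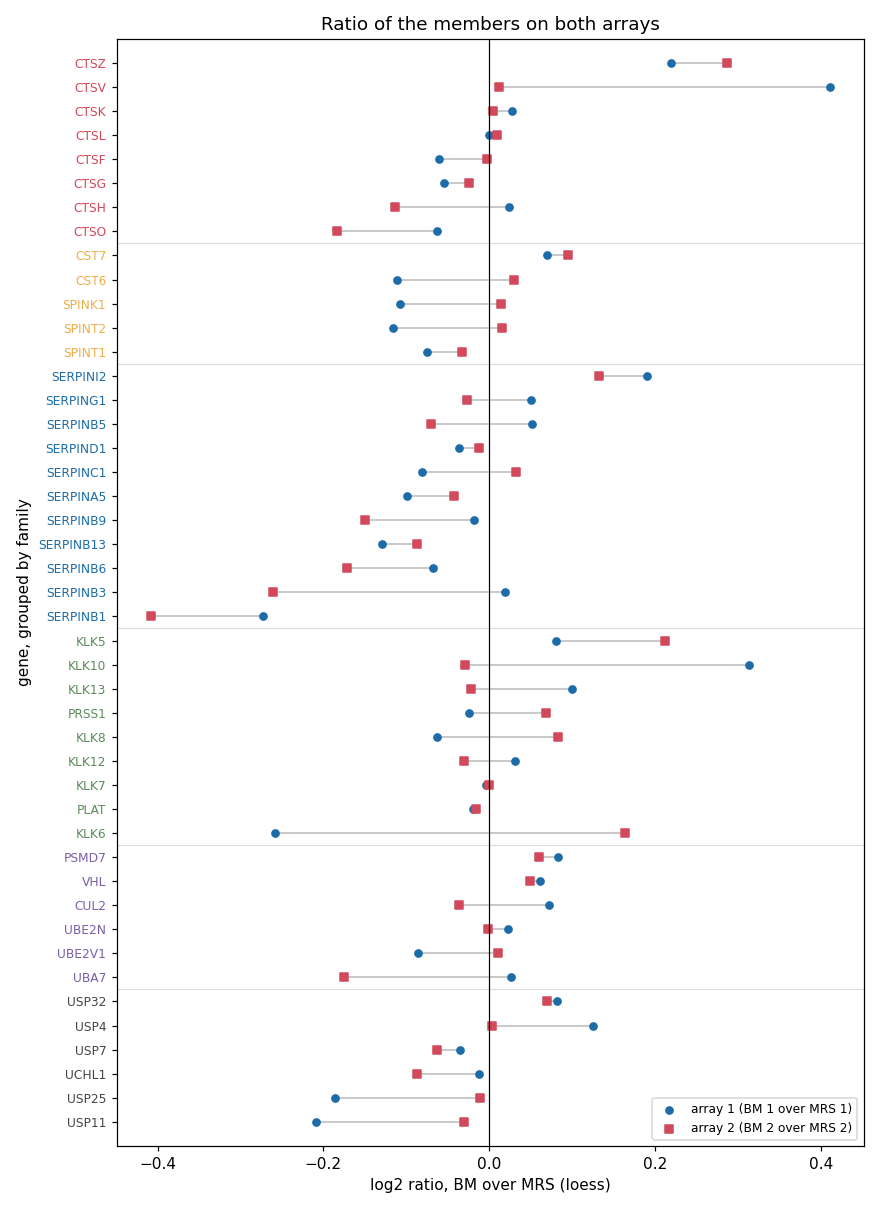
Log2 ratio of BM over MRS after loess for 45 of the 47 members, grouped by family and ordered by mean ratio, with circles for array 1, squares for array 2 and a line joining the pair. Most pairs lie within 0.2 of 0, CTSZ and SERPINB1 are the members whose ratios exceed 0.2 in size on both arrays in the same direction, and KLK6 and CTSV have the widest gaps.

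The 2 arrays gave weakly related ratios. Over the 47 members, which share the printed arrays and the samples, Pearson's r between array 1 and array 2 was 0.308 and Spearman's rho was 0.235. Without CTSZ and SERPINB1, which were chosen after their values were seen, these were 0.0787 and 0.134 over 45 members, and Pearson's r was 0.108 over all probes. Within an array the 2 spots of a member gave ratios that correlated at 0.905 on array 1 and 0.879 on array 2, with a median absolute difference of 0.026 and 0.0339. Between the 2 arrays, the SD of a member's ratio had a median of 0.0731.

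Among the cathepsins, 3 of 8 were higher in BM on both arrays (CTSZ, CTSV and CTSK), 3 were lower (CTSO, CTSG and CTSF) and 2 had opposite signs. CTSZ had a log2 intensity of 15.62 in BM 1 and 15.81 in BM 2, against 15.40 in MRS 1 and 15.53 in MRS 2. The BM samples were the higher ones and the groups did not overlap. Its ratios were 0.22 and 0.29, its 95% interval 0.11 to 0.40, and its unadjusted p from limma 0.00728, with an adjusted p of 0.571. CTSZ was the brightest member, at the percentile 99.89 of all probes, and its raw intensities of 55370 and 63110 in BM and 39570 and 43070 in MRS approached the scanner's maximum of 65535. Other very bright probes were also higher in BM: of the 20 brightest on the arrays, 13 had a positive ratio on both and 0 a negative one, and their median ratio was 0.12. The brightest 186 probes as a whole had a median of -0.0040, with 49 higher and 59 lower on both arrays. The part of brightness in the CTSZ ratio was not tested. With print-tip loess, which fits a curve for each printing block, the CTSZ ratio was 0.13 and the median of those 20 was 0.070. With median centring in place of loess they were 0.73 and 0.54, and CTSZ passed (adjusted p = 0.0121, limma), with 1.83% of all probes.

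CTSV, a close relative of cathepsin L found mainly in thymus and skin, had 10.76 and 10.09 in BM 1 and BM 2, against 10.35 and 10.08 in MRS 1 and MRS 2. BM 1 stood above the other 3 samples, and the groups overlapped. The ratio was 0.41 on array 1 and 0.012 on array 2 (mean 0.21 ± 0.28, SD, n = 2), so its mean rests on 1 array. On array 1 its 2 spots gave 0.42 and 0.40, and on array 2 they gave 0.061 and -0.036. CTSL, its near copy with a wide role in lysosomal digestion, had a mean ratio of 0.0043, and CTSK, which degrades collagen in bone, had ratios of 0.028 and 0.0048. CTSK turned to -0.034 with print-tip loess. Whether the CTSV and CTSL probes cross-hybridize was not tested.

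CTSO, a little-studied cysteine cathepsin, had a log2 intensity of 10.75 and 12.23 in BM 1 and BM 2, against 10.82 and 12.42 in MRS 1 and MRS 2. Each BM sample lay below the MRS sample of its array, but the arrays differed far more than the groups, which overlapped. Its mean ratio was -0.12 ± 0.086 (SD, n = 2, adjusted p = 0.779, limma). CTSG, a serine protease of neutrophil granules in spite of its name, had 11.941 and 11.949 in BM, against 11.995 and 11.974 in MRS. The groups did not overlap, with ratios of only -0.054 and -0.025. CTSF and CTSH, a cysteine protease and an aminopeptidase of the lysosome, had mean ratios of -0.032 and -0.045, and both probes were dim, at the percentiles 1.51 and 5.07 of intensity. CTSF was under 1.5 times background in BM 2, and its mean ratio ran from -0.15 to 0.059 over the ways of processing, so its direction was not settled. The median of the 8 cathepsins was -0.014, and it turned to 0.030 with median centring.

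The 5 cystatins and Kazal or Kunitz inhibitors comprised 1 gene higher in BM on both arrays, CST7, 1 lower, SPINT1, and 3 with opposite signs, with a median of -0.047. CST7, the cystatin F of immune cells, had 10.85 and 11.36 in BM 1 and BM 2, against 10.78 and 11.26 in MRS 1 and MRS 2, a mean ratio of 0.082 ± 0.017 (SD, n = 2, adjusted p = 0.790, limma). The groups overlapped because array 2 was brighter in both. SPINT1, which inhibits the activator of hepatocyte growth factor and matriptase, had 12.10 and 11.997 in BM, against 12.17 and 12.03 in MRS, and its ratios were -0.075 and -0.033. It was the brightest of the 5, and its groups overlapped. CST6, a cystatin of skin that inhibits legumain and cathepsins, had 9.83 and 10.44 in BM, against 9.94 and 10.41 in MRS. Its ratio was -0.11 on array 1 and 0.030 on array 2, the widest gap of the 5. SPINT2, a relative of SPINT1, and SPINK1, the pancreatic trypsin inhibitor, had the same pattern of a negative ratio on array 1 (-0.12 and -0.11) and a slightly positive one on array 2 (0.015 and 0.014).

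**Figure D2:**
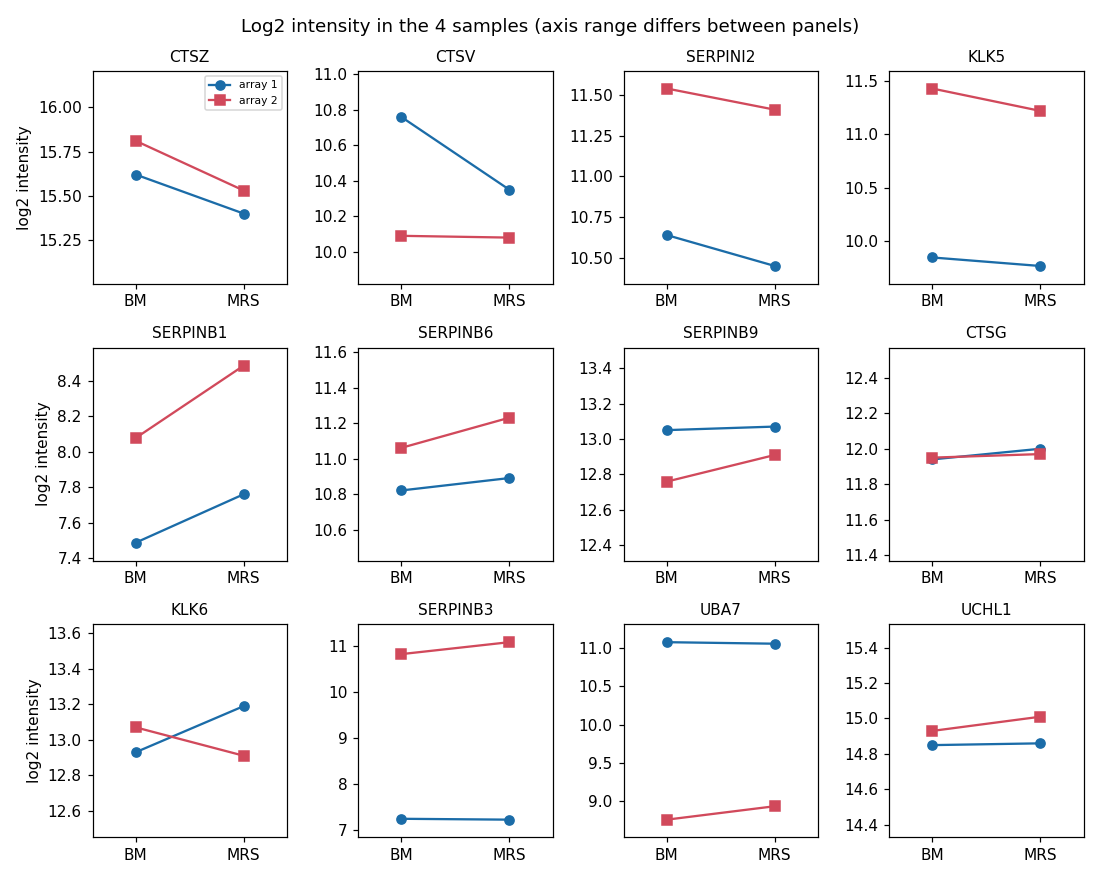
Log2 intensity after loess in each sample for 12 members, with BM left of MRS, a line joining the samples of an array, and a separate vertical scale in each panel. The groups separate for CTSZ and CTSG, on levels not normalized between arrays, while for SERPINB3 and KLK5 the distance between arrays exceeds that between BM and MRS.

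The serpins had the lowest family median, -0.058, with 1 of 12 higher in BM on both arrays, 6 lower and 5 with opposite signs. Over all probes, 24.6% were higher and 28.4% lower on both arrays. The serpin median was negative under each of the 6 ways of processing tried, between -0.075 and -0.055. All 6 use the same arrays, and a kept sign was not particular to serpins. The cystatin, Kazal and Kunitz median was also negative under all 6, and the ubiquitin conjugation, ligation and proteasome median was positive under all 6. The serpin median was not the lowest with plain background subtraction, where the deubiquitinases stood at -0.077 and the serpins at -0.059. The 6 lower members were SERPINB1, SERPINB6, SERPINB13, SERPINB9, SERPINA5 and SERPIND1. None of them passed, and the median was not tested as such.

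SERPINB1, which inhibits neutrophil elastase, cathepsin G and proteinase 3, had a log2 intensity of 7.49 in BM 1 and 8.08 in BM 2, against 7.76 in MRS 1 and 8.49 in MRS 2. Each BM sample was below the MRS sample of its array, and the groups overlapped because array 2 was brighter in both channels. The ratios were -0.27 and -0.41, the 95% interval -0.50 to -0.18, and limma gave an unadjusted p of 0.00356 and an adjusted p of 0.571. All 4 of its spots were lower in BM, at -0.35 and -0.20 on array 1 and -0.39 and -0.42 on array 2. It had the 7th largest absolute ratio of the 1856 probes and the lowest of the 185 probes with a mean log2 intensity between 6.64 and 8.02. The probe was dim, with raw intensities of 176 and 274 in BM over local backgrounds of 74.3 and 98.5, against 219 and 357 in MRS over 46.9 and 51.6. Background was thus higher in the BM channel, and its part in the ratio was not tested. The ratio without any background correction was -0.36, and over the other ways of processing it ran from -0.47 to -0.33.

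SERPINB9, the inhibitor of granzyme B, and SERPINB6, which inhibits cathepsin G and trypsin-like proteases, follow SERPINB1 on chromosome 6 with 0 protein-coding genes between neighbours. SERPINB9 had 13.05 and 12.76 in BM 1 and BM 2, against 13.07 and 12.91 in MRS 1 and MRS 2, and SERPINB6 had 10.82 and 11.06 in BM, against 10.89 and 11.23 in MRS. Both were lower in BM on both arrays while the groups overlapped. Their mean ratios were -0.084 ± 0.093 and -0.12 ± 0.073 (SD, n = 2), with adjusted p of 0.806 and 0.779 from limma. All 3 neighbours thus had negative ratios on both arrays, but they were grouped by position after these values had been seen, and SERPINB1 stood well apart from the others in size.

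On chromosome 18, SERPINB13 and SERPINB3, serpins of squamous epithelia that inhibit cysteine cathepsins, lie near SERPINB5, or maspin, which is known as a tumour suppressor of breast epithelium. SERPINB13 had 7.42 and 8.15 in BM 1 and BM 2, against 7.55 and 8.23 in MRS 1 and MRS 2, and its mean ratio was -0.11 ± 0.030 (SD, n = 2, adjusted p = 0.779, limma). SERPINB3 had 7.25 and 10.83 in BM, against 7.23 and 11.09 in MRS. Its level was 3.72 higher on array 2 than on array 1 in the mean of both channels, and its ratio was 0.019 on array 1, where it was dim, and -0.26 on array 2. SERPINB5 had ratios of 0.052 and -0.070. The mean ratios of SERPINB3 and SERPINB5 were -0.12 ± 0.20 and -0.0094 ± 0.086 (SD, n = 2), so all 3 chromosome 18 serpins were lower in BM on array 2, and SERPINB13 alone was also lower on array 1.

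SERPINI2, a serpin named for the pancreas, had 10.64 and 11.54 in BM 1 and BM 2, against 10.45 and 11.41 in MRS 1 and MRS 2. It was the only serpin higher in BM on both arrays, with ratios of 0.19 and 0.13 and a mean of 0.16 ± 0.041 (SD, n = 2, unadjusted p = 0.0344, adjusted p = 0.692, limma). The groups overlapped, since array 2 was brighter in both channels. SERPINA5, which inhibits activated protein C and kallikreins, had 12.19 and 11.84 in BM, against 12.29 and 11.88 in MRS, a mean ratio of -0.071. The clotting inhibitors SERPINC1 (antithrombin) and SERPIND1 (heparin cofactor II) both had a mean of -0.024. SERPING1, the inhibitor of complement C1, had 0.012. None of these 3 was larger in size than the spread between the arrays apart from SERPIND1, at -0.024 ± 0.017 (SD, n = 2).

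**Figure D3:**
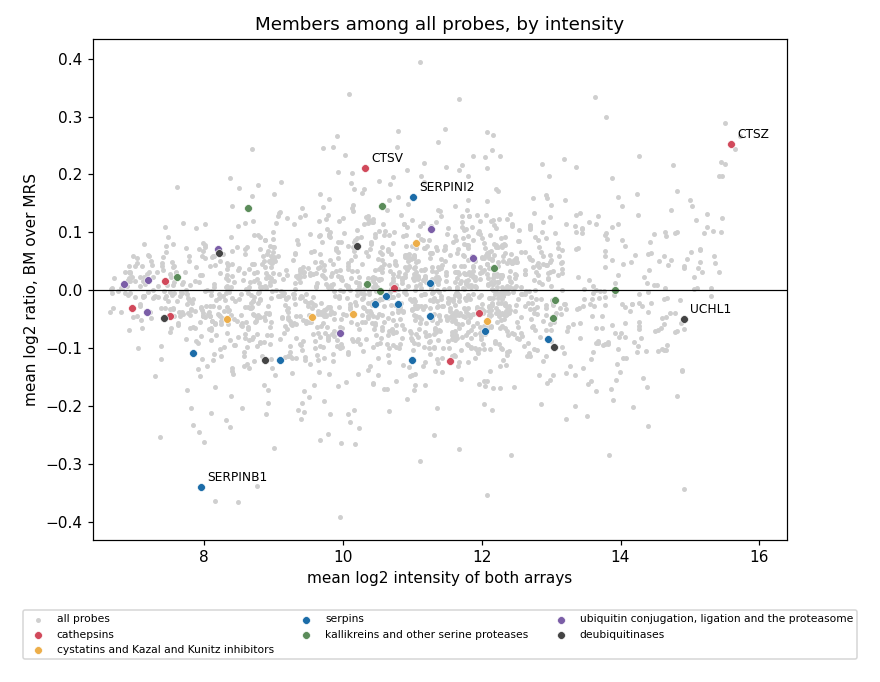
Mean log2 ratio of BM over MRS against the mean log2 intensity of both arrays for the 47 members, coloured by family, over all 1856 probes in grey. CTSZ lies at the bright end, where the 20 brightest probes have a median ratio of 0.12, and SERPINB1 lies at 7.95 on the intensity axis, among the lowest ratios of dim probes.

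Of the 9 kallikreins and other serine proteases, 1 was higher in BM on both arrays, KLK5, 2 were lower, and 6 had opposite signs, with a median of 0.010 that turned to -0.00046 without background correction. KLK5, which starts the protease cascade of the shedding epidermis, had a log2 intensity of 9.84 and 11.43 in BM 1 and BM 2, against 9.77 and 11.22 in MRS 1 and MRS 2. Both BM samples exceeded the MRS sample of their array, the groups overlapped, and the mean ratio was 0.15 ± 0.093 (SD, n = 2, adjusted p = 0.770, limma). KLK6, a kallikrein first studied in the brain, had 12.93 and 13.07 in BM, against 13.19 and 12.91 in MRS. BM was the lower sample on array 1, with a ratio of -0.26, and the higher one on array 2, with 0.16, the widest gap between arrays of all 47 members. Its 2 spots gave -0.27 and -0.25 on array 1 and 0.15 and 0.18 on array 2, so the spots of an array were close while the arrays opposed each other. KLK10 likewise stood at 0.31 on array 1 and -0.029 on array 2.

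KLK12, the brightest of the 9, had 13.69 and 14.16 in BM, against 13.66 and 14.19 in MRS, and its mean ratio was 6.94e-05. KLK7, a chymotrypsin-like partner of KLK5 in the skin, was 3.54 brighter on array 2 than on array 1 and had ratios of -0.0036 and -0.00042. Its spots within an array opposed each other, at 0.096 and -0.10 on array 1, so a mean near 0 hides a spread between spots. KLK8 and KLK13 had mean ratios of 0.010 and 0.039. PLAT, the tissue plasminogen activator, had -0.017, and PRSS1, or trypsin, had 0.022. The 7 kallikreins lie in a single cluster on chromosome 19, and across it KLK5 was the only one with a positive ratio on both arrays.

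Of the 7 genes of ubiquitin conjugation, ligation and the proteasome, 3 were higher in BM on both arrays (PSMD7 and VHL among them), 0 were lower and 4 had opposite signs, with a median of 0.018. PSMD7, a lid subunit of the regulatory particle of the proteasome, had 7.87 and 8.61 in BM 1 and BM 2, against 7.78 and 8.55 in MRS 1 and MRS 2, and a mean ratio of 0.072 ± 0.017 (SD, n = 2, adjusted p = 0.813, limma). VHL, the substrate receptor of the ligase that destroys hypoxia-inducible factors, had 12.06 and 11.75 in BM, against 12 and 11.70 in MRS, a mean ratio of 0.055 ± 0.0084 (SD, n = 2). For both genes each BM sample exceeded the MRS sample of its array, and the groups overlapped.

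CUL2, the scaffold on which VHL acts, had ratios of 0.072 and -0.036, so it did not share the sign of VHL on array 2. Its probe was dim, at the percentile 2.96 of intensity and 1.77 times background in both BM samples. The mean ratio of CUL2 ran from 0.018 to 0.15 over the ways of processing. UBE2N and UBE2V1, which together build ubiquitin chains used in signalling, were both among the dimmest probes. UBE2N is given no fold because neither BM sample reached 1.5 times background, and UBE2V1 had ratios of -0.086 and 0.011. UBA7, which activates the interferon-induced modifier ISG15, had 11.08 and 8.75 in BM 1 and BM 2, against 11.06 and 8.93 in MRS 1 and MRS 2. The difference in level, array 2 minus array 1, was -2.23 in the mean of both channels, and the ratio was 0.026 on array 1 and -0.18 on array 2. The 2 UBA7 spots of array 2 gave -0.29 and -0.061, and the mean ratio ran from -0.23 to -0.037 over the ways of processing. Its local backgrounds were 145 and 218 in BM 1 and BM 2, against medians of 79.5 and 101.7 over the spots.

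The 6 deubiquitinases each had the same sign on both arrays, as 53.1% of all probes did. USP32 and USP4 were higher in BM, and USP11, USP25, UCHL1 and USP7 were lower. Some of these signs were weak: the 2 spots differed in sign for UCHL1 on array 1 and for USP25 and USP4 on array 2. The median of the 6 was -0.049, and it turned to 0.015 with median centring. USP32, a membrane-bound deubiquitinase, had a log2 intensity of 10.52 and 9.96 in BM 1 and BM 2, against 10.44 and 9.89 in MRS 1 and MRS 2, a mean ratio of 0.076 ± 0.0081 (SD, n = 2, adjusted p = 0.804, limma). USP11, a deubiquitinase of DNA repair, had 8.71 and 8.92 in BM, against 8.92 and 8.96 in MRS. BM 1 was the lowest sample, with ratios of -0.21 and -0.031 and a mean of -0.12 ± 0.13 (SD, n = 2, adjusted p = 0.779, limma).

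USP7, which removes ubiquitin from p53 and from its ligase MDM2, had 6.95 and 7.85 in BM, against 6.99 and 7.91 in MRS, and a mean ratio of -0.049 ± 0.019 (SD, n = 2). UCHL1, a ubiquitin hydrolase abundant in neurons, was the brightest of the 6. It had 14.85 and 14.93 in BM, against 14.86 and 15.01 in MRS, a mean ratio of -0.050 ± 0.053 (SD, n = 2). The groups overlapped for both genes, and the sign of both depended on the normalization: with median centring UCHL1 stood at 0.30 and USP7 at 0.0033. USP25 had ratios of -0.19 and -0.011, and USP4 had 0.12 and 0.0039, so their means rest mostly on array 1.

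Some members that act on each other can be set side by side, although none of them passed. These pairs follow no fixed rule and were picked with the values known. Others named above were left out, such as SERPINB13 and SERPINB3 with the cysteine cathepsins and SERPINA5 with the kallikreins. CTSG had a mean ratio of -0.039 and its inhibitors SERPINB1 and SERPINB6 had -0.34 and -0.12. PRSS1 stood at 0.022 and its inhibitor SPINK1 at -0.047. CTSV stood at 0.21 and CST6, which inhibits it, at -0.041. Of these pairs, the members of CTSG with SERPINB1 and SERPINB6 were lower on both arrays, while PRSS1, SPINK1 and CST6 had opposite signs on the 2 arrays.

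The level of a member differed between arrays more than between groups in many cases. The mean level of both channels differed by at least 1 log2 unit between the arrays for 8 members, 17% of them against 16.5% of all probes, and by at least 2 for SERPINB3, KLK7 and UBA7. Both channels of an array moved together in these cases, with SERPINB3 3.58 higher in BM 2 than in BM 1 and 3.86 higher in MRS 2 than in MRS 1. The ratio within an array leaves out such differences, and for this reason each BM sample was set against the MRS sample of its own array.

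**Figure D4:**
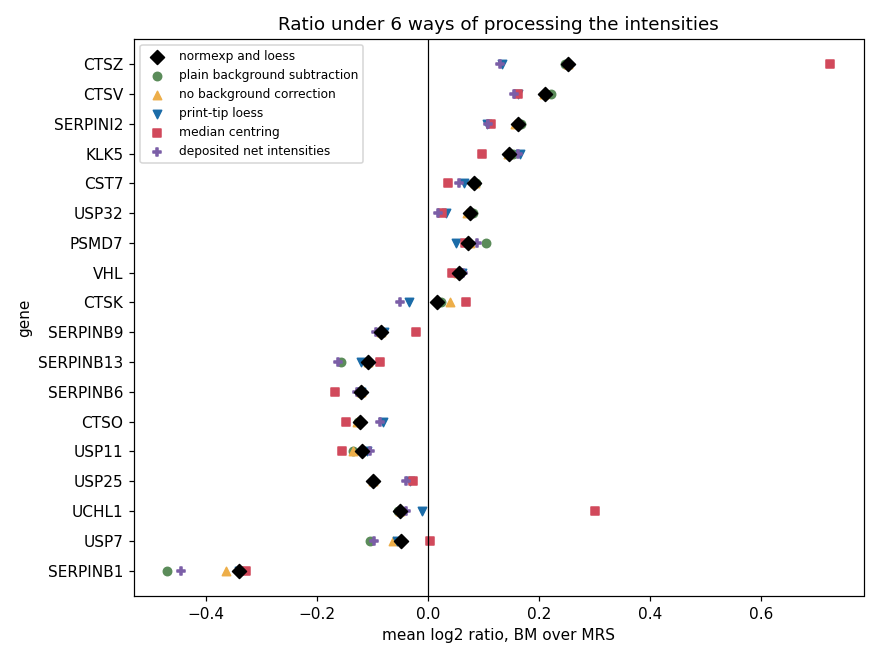
Mean log2 ratio of BM over MRS for 18 members under 6 ways of processing the intensities, with black diamonds for the normexp and loess values given in the text. CTSZ and UCHL1 move to 0.73 and 0.30 with median centring, while SERPINB1 stays between -0.47 and -0.33.

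The way of processing decided the sign of some members. Of the 27 members with a shared sign, 21 kept the sign of their mean ratio under the 5 other ways of correcting background, normalizing or taking the intensities. They were 10 of the 11 higher in BM, with CTSK as the exception, and 11 of the 16 lower, with CTSF, KLK7, PLAT, USP7 and UCHL1 as the exceptions.

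Genes outside the name rule that act beside these systems were also described. Of 15 ubiquitin ligase and related probes, 4 had a positive and 4 a negative ratio on both arrays, with a median of -0.0023 that turned to 0.0073 with the deposited net intensities, whose BM values carry a factor of unstated origin that differs between dim and bright spots. DDB2, the damage sensor of a cullin 4 ligase, stood at 0.23 ± 0.064, MDM2, the ligase of p53, at -0.21 ± 0.075 and the deubiquitinase gene BAP1 at 0.13 ± 0.011 (SD, n = 2). Of 14 probes of metalloproteinases and their inhibitors, 6 were higher and 2 lower, with a median of 0.032, and MMP2, a gelatinase, MMP14, its membrane-bound activator, and TIMP4, an inhibitor, stood at 0.13 ± 0.033, 0.18 ± 0.14 and 0.17 ± 0.11 (SD, n = 2). The MMP14 probe was dim, at 1.65 times background in BM 2. Limma gave 0 adjusted calls in both lists, as over all probes. The median of the metalloproteinase list was positive under all 6 ways of processing. Those of the chaperone and lysosomal lists described next were negative under all 6.

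Of 8 probes of the plasminogen and clotting system, 4 had a positive and 2 a negative ratio on both arrays, with a median of -9e-05 that turned to 0.00066 with plain background subtraction, and F2R, the thrombin receptor, stood at 0.22 ± 0.12 (SD, n = 2). Of 7 chaperone and stress response probes, 1 was higher (HSPA8, 0.048 ± 0.036) and 2 were lower (HSPA1A, -0.12 ± 0.11, and ATF4, -0.076 ± 0.029), and HSPA1A turned to 0.013 with median centring. Of 4 lysosomal probes outside the cathepsins, 0 were higher and 1 was lower, GLA, a lysosomal galactosidase, at -0.091 ± 0.056 (SD, n = 2). None of these lists held an adjusted call. Since limma called 0 of all 1856 probes (0%), this says nothing particular about the lysosomal or the ubiquitin lists.

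Each spot has a z ratio in the authors' deposited table, a score that is positive where BM is higher. A z ratio of 2 or above in both spots was given there to 1 member, KLK10, at 2.13 and 2.54 (1.78% of probes reached this). In the authors' deposited table a z ratio of -2 or below in both spots was given to SERPINB1, at -4.46 and -4.00, and to SERPINB3, at -2.14 and -2.39 (1.41% of probes). Of these 3, SERPINB1 alone was lower after loess on each array, while KLK10 stood at 0.31 on array 1 and -0.029 on array 2 and SERPINB3 at 0.019 and -0.26. CTSZ had 1.12 and 1.33 in the authors' deposited table.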

How the data were processed

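SW480 RNA (5 µg per sample) was measured on 2-colour arrays. Per the file headers, the authors deposited raw, local background and net intensity for 3840 spots in both channels. The net values of BM carry a factor that varies with intensity and whose method is not stated. A z ratio, a score per spot, is in the authors' deposited table. Which image software was used is not stated in the labels or headers. Sample titles gave the groups, since all 4 samples carry MRS in their treatment field. The replicate numbers are also those of the titles. The column headers and sample descriptions number the same samples differently, with the same pairs on each array.

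In limma 3.58.1 (R 4.3.3), background was corrected by normexp (offset 50) and each array was normalized by loess, with 54 control spots at weight 0. Spots of one accession were averaged, which left 1856 probes. Symbols came from RefSeq: 45 members matched by accession and 2 by symbol (UBE2V1, USP11). The files' CTSL2 and UBE1L are CTSV and UBA7. The mean of the 2 ratios was tested (intercept, eBayes, two-sided, Benjamini-Hochberg over all probes, threshold 0.05), with 1 residual and 3.5 prior degrees of freedom. P-values set a mean ratio against a spread drawn mostly from the prior pooled over probes and less from the 2 pairs. Each ratio carries its array, which pairs the samples. The channels of an array correlated at 0.998 and 0.996 and the arrays at 0.928, but channels share printed spots. The steps were also run on simulated data, with a spread drawn from the same pooled prior. The pass mark of that run covered only log2 ratios larger than any mean ratio here. How often a ratio of the size seen here would pass is not given.

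The name rule of the members uses no measured value, but the members and lists were chosen with earlier results of these data known. Members described sample by sample were CTSZ, SERPINB1, up to 10 per direction with a shared sign in order of the smaller absolute ratio, and per family the brightest and the one with the widest gap between arrays. Values of 2 members are not reported here by gene; both stay in the counts and medians. From each other list up to 3 genes were named in the same order. Alternatives were plain subtraction or no background correction, print-tip loess, median centring, the deposited net intensities, dim probes left out, one probe per gene, no replicate block, and leaving out samples.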

Additional observations from a re-analysis of the deposited data

How the results depend on the processing

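No member passed (limma, adjusted p threshold 0.05) under any alternative but median centring without loess, under which 1 did, CTSZ, among 34 of all probes (1.83%). The median of the members' mean ratios was -0.010 with print-tip loess, 0.0033 with median centring and -0.012 with the deposited net intensities, against -0.024. The deposited intensities are no plain alternative: in BM 1 and BM 2 they are raw minus background times a median factor of 1.205 and 1.176, and of 0.975 and 0.971 in the brightest 10% of spots, while the factor is 1 in both MRS samples. The median of the members was -0.011 without replicate 1 (the first array) and -0.0036 without replicate 2. Leaving out 1 sample without the replicate block gave -0.075, -0.00049, 0.0026 and -0.064 (without BM 1, BM 2, MRS 1 and MRS 2) and 0 members passing. With 1 array left there is no test. Without the replicate block the count was 0 as well, but the difference between arrays then enters the spread, so this count says little about the members. The pairing comes from the shared arrays. Counts of a shared sign could not be given without the block or with 1 array. The sign of the mean ratio turned for 2 members with plain subtraction, 2 with no correction and 7 with print-tip loess. It turned for 11 with median centring and 5 with the deposited intensities. It could not turn with dim probes left out or one probe per gene, since both keep each member's ratio as it was. The sign turned for 12 without replicate 1 and for 8 without replicate 2. There the ratio is that of the array left, so only members with opposite signs on the 2 arrays could turn. It turned for 19 to 22 when 1 sample was left out without the block, where the difference between arrays enters the ratio by construction. The cause of the turns under the other ways of processing was not tested. UBE2N and CTSF are limited by signal near background. CUL2, UBE2V1 and USP7 lay not far above 1.5 times background in BM 1, at 1.77, 1.59 and 1.65.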
